A study of Mus musculus with 35 samples.

Results

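Chemokines are small secreted proteins that direct the movement of leukocytes, and their receptors are G protein-coupled receptors on the cells that respond. The genes described here are 30 listed by name, 21 chemokine ligands and 9 chemokine receptors, found by gene symbol in the RNA and footprint count tables among 55487 genes, and all 30 were present in both. The cells are mouse acute myeloid leukemia cells driven by the MLL-AF9 fusion oncogene, carrying either a guide RNA against Ogfod1 (sgOgfod1) or a scrambled guide (sgScramble). Ogfod1 is a prolyl hydroxylase that acts on a ribosomal protein. The 4 groups were treated sgOgfod1, treated sgScramble, vehicle sgOgfod1 and vehicle sgScramble leukemias. Treated mice received a diet free of branched-chain amino acids (BCAA) together with "5+3" chemotherapy, which is cytarabine at 100 mg/kg daily for 5 days with doxorubicin at 3 mg/kg daily for the first 3 of these days. Vehicle mice received the standard amino acid (AA) diet and PBS. The effects of diet and of drugs cannot be told apart, since no group had only one of them, and "treatment" below means both.

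All groups shared the same host and the same leukemia. Per the labels' protocols, male mice aged 8 to 10 weeks were injected with leukemia cells, which carried a GFP marker and had been grown ex vivo from the marrow of a terminally ill mouse. Whether each guide line was a clone or a pool is not given in the sources used here. Marrow was collected when the response to chemotherapy was at its maximum, and viable GFP-positive cells were sorted. Each lysate gave a full-length RNA library and, for 12 mice, a library of ribosome footprints, the short stretches of mRNA that a ribosome covers. RNA was measured in 6 treated sgOgfod1, 7 treated sgScramble, 5 vehicle sgOgfod1 and 5 vehicle sgScramble mice. Footprints were measured in 2 treated sgOgfod1, 4 treated sgScramble, 3 vehicle sgOgfod1 and 3 vehicle sgScramble mice.

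Ligands of the CC class mostly attract monocytes, macrophages and T cells, and those CXC ligands that carry the ELR motif attract neutrophils through Cxcr2. Cxcl12 acts through Cxcr4 and holds hematopoietic and leukemic cells in the bone marrow. Ccr1, Ccr2 and Cx3cr1 are receptors of the monocyte and macrophage lineage, while Ackr3 binds and removes chemokine without the usual G protein signal. Monocytes and macrophages themselves make many of the ligands, and platelets store Pf4 and Ppbp.

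RNA libraries held 31921768 to 142694163 counts and footprint libraries 5705585 to 14642692. Levels (CPM) are counts scaled to a library of 1000000, on scaled library sizes. Ogfod1 itself had 1.44 to 2.90 footprint CPM in treated sgOgfod1 mice against 12.3 to 17.5 in treated sgScramble mice. Under vehicle it had 1.66 to 2.97 in sgOgfod1 mice against 13.7 to 15.4 in sgScramble mice, so the genotypes did not overlap in either treatment. The 8 leukemia markers Hoxa9, Hoxa10, Meis1, Mpo, Ptprc, Itgam, Cd33 and Csf1r summed to 2956 to 6787 RNA CPM over the 23 libraries, with none at 0 throughout a group. Treated sgScramble replicate 4 and treated sgOgfod1 replicate 3 stood apart on the first principal component of RNA, at 257.6 and 145, against -104.9 to 54 for the other 21 libraries. Neither had a footprint library.

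At rest the leukemia cells carried a few of these genes at a high level and most of the ligands at almost none. On RNA CPM per kilobase of exon, a scale that allows genes to be compared, Ccr1 was highest in vehicle sgScramble mice at 71.9 ± 9.78 (SD, n = 5). The macrophage-attracting ligand Ccl9 followed at 52.3 ± 4.96, Cxcr4 at 34 ± 3.81, Ccl6 at 31.4 ± 7.66, Ccr2 at 18.4 ± 1.89 and Ccl3 at 13.8 ± 2.92. Cxcr4 and Ccl6, and Ccr2 and Ccl3, differed by less than the sum of their SDs. Of the other genes, 5 lay between 1 and 10 on the same scale (Cxcr2, Cx3cr1, Ccl4, Cxcl10 and Ccrl2) and 19 below 1, with no read on Ccl22.

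Under treatment 14 of the 20 ligands tested and 2 of the 8 receptors were higher in RNA of sgScramble leukemias. In sgScramble leukemias 16 of the 28 genes that passed the filter on low counts were higher in treated than in vehicle mice, and none were lower. For comparison, 8.6% of all 21474 genes tested were higher and 4.34% lower (edgeR quasi-likelihood test, Benjamini-Hochberg adjusted p under 0.05). The members, like the pathway and marker lists below, were chosen with earlier results of these data known. Setting them against all genes is therefore not an independent test. The median RNA log2 fold change was 3.74 over the ligands, 0.16 over the receptors and -0.01 over all genes. In sgOgfod1 leukemias 13 members were higher in treated mice, 11 ligands and 2 receptors, and 1 receptor was lower, against 5.69% and 4.18% of all genes. The medians there were 2.68 over ligands, 0.51 over receptors and 0 over all genes. Both the counts and the medians include 9 genes (Ccl5, Ccl8, Ccl12, Ccl17, Cxcl1, Cxcl3, Ppbp, Cxcr3 and Ackr3) that passed the filter with fewer vehicle libraries than it needs, that is, through treated libraries, so they do not describe all members. Of the 13 ligands that did not depend on treated libraries to be tested, 9 were higher in sgScramble leukemias (median log2 fold change 3.27) and 6 in sgOgfod1 leukemias (median 1.15). Without the 2 libraries that stood apart, 17 were higher and 1 lower in sgScramble, and 12 higher and 2 lower in sgOgfod1 leukemias. Ccl22 and Ccr7 had too few counts to be tested. In sorted bulk cells a change in the number of cells of a type and a change in RNA per cell cannot be told apart.

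**Figure D1:**
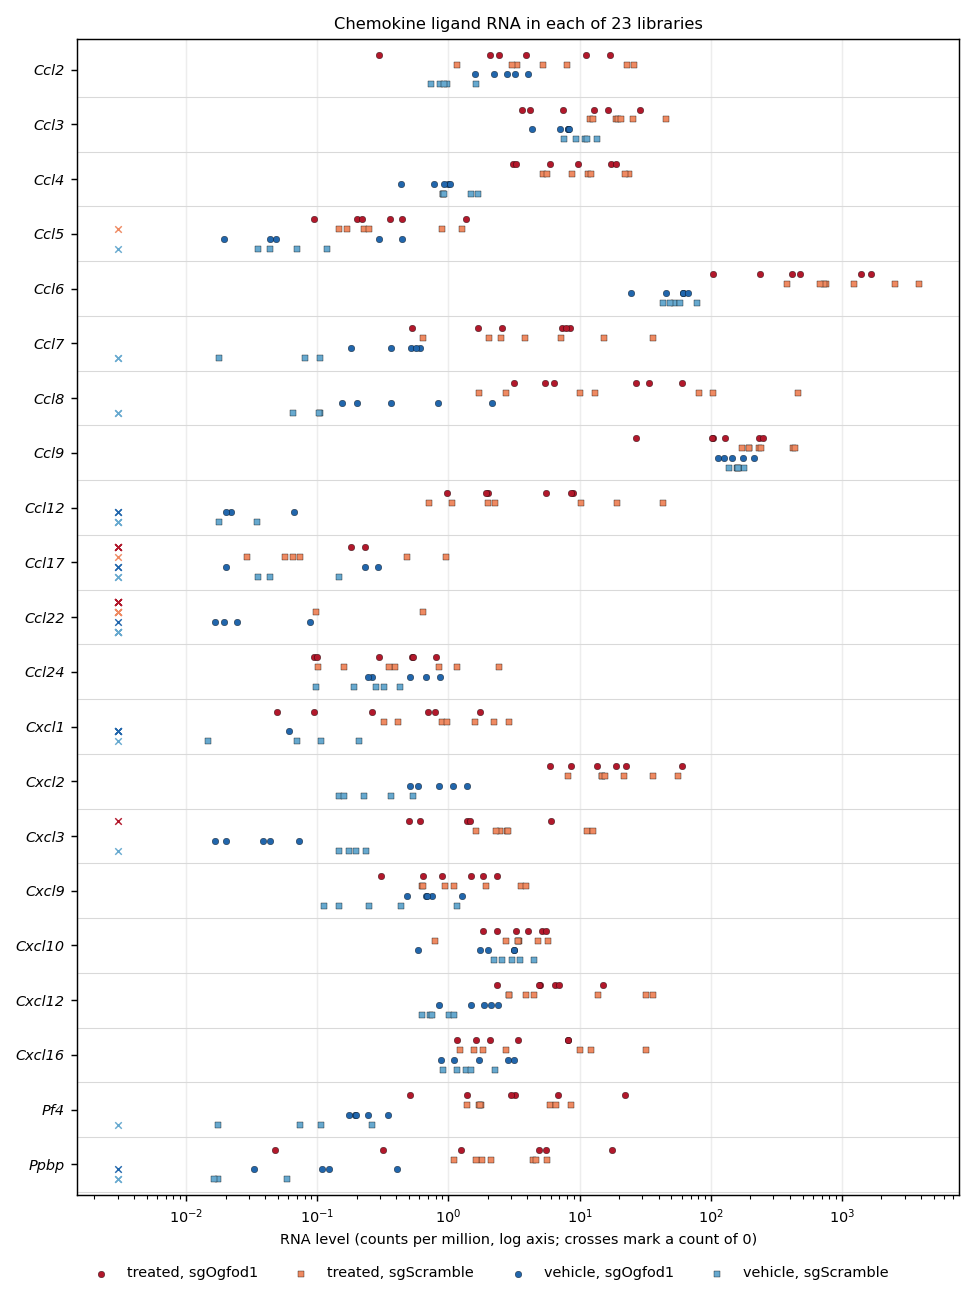
RNA level of the 21 ligands in each of the 23 libraries, in CPM on a log axis; each point is 1 mouse, colors and shapes give the 4 groups, and crosses mark a count of 0. For Ccl4, Ccl6, Ccl12 and Cxcl2 every treated library lies above every vehicle library, while Cxcl10 overlaps in all groups.

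The monocyte chemoattractants Ccl2, Ccl7, Ccl12 and Ccl8 lie in 1 cluster on chromosome 11 (82035571 to 82116799, GRCm38, plus strand). Ccl2, Ccl7 and Ccl12 act on Ccr2, and Ccl8 in the mouse mainly on Ccr8. Ccl8, Ccl12 and Ccl7 had the largest fitted RNA log2 changes of the members in sgScramble leukemias. Ccl8 and Ccl12 passed the filter through treated libraries, so this order was partly fixed by the filter. Ccl8 (ENSMUSG00000009185) had a lowest, median and highest level of 1.71, 13.1 and 459 CPM in treated sgScramble mice, against 0, 0.105, 0, 0.102 and 0.0648 CPM in the 5 vehicle sgScramble mice. The groups did not overlap, and treated replicates 4, 6 and 7 were the highest. Because only 17 reads fell on Ccl8 in the vehicle group against 42499 in the treated group, the ratio of scaled counts was 1330 with a 95% counting interval of 832 to 2290. The fitted log2 fold change was 10.59 ± 1.73 (SE; adjusted p = 0.00035). In treated sgOgfod1 mice Ccl8 had 3.16 to 60.6 CPM (median 16.6), against 0.154, 2.13, 0.831, 0.365 and 0.202 CPM in vehicle sgOgfod1 mice, again with no overlap. That difference was 4.91 ± 1.27 on the log2 scale (adjusted p = 0.0155). Without the filter on low counts it was 4.93, with adjusted p = 0.0617.

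Ccl12 (ENSMUSG00000035352) had 0.712 to 43.5 CPM (median 2.26) in treated sgScramble mice and 0, 0.0350, 0.0178, 0 and 0 CPM in vehicle sgScramble mice. It had 0.969 to 8.85 CPM (median 3.75) in treated sgOgfod1 mice and 0, 0.0660, 0.0219, 0 and 0.0202 CPM in vehicle sgOgfod1 mice. Every treated library was above every vehicle library in both genotypes. With 3 vehicle reads the sgScramble count ratio was 918 (95% counting interval 314 to 4450), and with 6 it was 186 in sgOgfod1 mice (85.3 to 508). The fitted log2 value was 7.50 ± 1.27 in sgOgfod1 (adjusted p = 0.000597) and 9.77 ± 1.39 in sgScramble leukemias (adjusted p = 0.000113).

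Ccl7 followed the same pattern. It had 0.644 to 36.1 CPM (median 3.81) in treated sgScramble mice, against 0, 0.105, 0.0178, 0 and 0.0810 CPM in vehicle sgScramble mice, a count ratio of 195 (112 to 378). In treated sgOgfod1 mice it had 0.525 to 8.43 CPM (median 4.96), against 0.521, 0.611, 0.57, 0.365 and 0.182 CPM in vehicle sgOgfod1 mice. The lowest treated sgOgfod1 library fell among the vehicle libraries. The log2 fold change was 7.75 ± 1.15 in sgScramble (adjusted p = 0.000154) and 3.39 ± 0.89 in sgOgfod1 leukemias (adjusted p = 0.017). Without vehicle sgOgfod1 replicate 5 the second value was 3.19 and its adjusted p 0.0505, and without the filter on low counts 3.40 and 0.051.

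Ccl2, the best known ligand of Ccr2, rose in sgScramble leukemias. It had 1.17 to 26 CPM (median 5.29) in treated sgScramble mice, against 0.856, 0.735, 1.64, 0.981 and 0.924 CPM in vehicle sgScramble mice, with an overlap of 1 treated library and a log2 fold change of 3.27 ± 0.80 (adjusted p = 0.00873). The call was lost in the 12 mice with a footprint library (log2 1.53, adjusted p = 0.176) and with a term for library numbers of 17 and above (log2 3.70, adjusted p = 0.064). In sgOgfod1 leukemias it had 0.295 to 17.1 CPM (median 3.17) under treatment, against 2.81, 2.23, 4.07, 1.58 and 3.19 CPM under vehicle. There 3 of 6 treated libraries lay above the vehicle median, and the log2 value was 1.15 ± 0.74 (adjusted p = 0.342). The difference between the genotypes' treatment effects did not pass for Ccl2 (interaction -2.12 ± 1.03, adjusted p = 1).

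A second group on chromosome 11 (83525778 to 83664683) holds Ccl5, Ccl9, Ccl6, Ccl3 and Ccl4, several of which act on Ccr1. Ccl6 (ENSMUSG00000018927), a mouse ligand of Ccr1 made by myeloid cells, ranked first of the members in both treated groups on the RNA per-kilobase scale, at 399 ± 362 in sgOgfod1 and 812 ± 716 in sgScramble mice (SD, n = 6 and 7). It had 378 to 3886 CPM (median 750.4) in treated sgScramble mice, against 52.8, 57.9, 43.3, 49.0 and 79.1 CPM in vehicle sgScramble mice. In treated sgOgfod1 mice it had 103 to 1667 CPM (median 449.9), against 61.0, 45.2, 61.7, 24.7 and 66.9 CPM in vehicle sgOgfod1 mice. In neither genotype did the groups overlap. The log2 fold changes were 4.69 ± 0.69 (adjusted p = 0.00014) in sgScramble and 3.79 ± 0.66 (adjusted p = 0.000804) in sgOgfod1 leukemias.

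Ccl4, an attractant of monocytes and T cells, rose in both genotypes. Its RNA was 5.25 to 23.6 CPM (median 11.5) in treated sgScramble mice and 0.914, 1.68, 0.906, 0.923 and 1.48 CPM in vehicle sgScramble mice. It was 3.13 to 18.9 CPM (median 7.78) in treated sgOgfod1 mice and 0.771, 0.990, 1.03, 0.438 and 0.929 CPM in vehicle sgOgfod1 mice. All treated libraries lay above all vehicle libraries. The log2 fold change was 3.43 ± 0.50 in sgScramble (adjusted p = 0.000143) and 3.54 ± 0.52 in sgOgfod1 leukemias (adjusted p = 0.000164).

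The neighbors Ccl3, Ccl5 and Ccl9 did not pass in edgeR with all mice. Ccl3, another ligand of Ccr1, averaged 22.1 ± 11.3 (SD, n = 7) CPM in treated sgScramble mice and 10.6 ± 2.24 (SD, n = 5) in vehicle sgScramble mice, with a log2 value of 1.06 ± 0.41 (adjusted p = 0.0903). Ccl9 averaged 271 ± 112 (SD, n = 7) CPM in treated and 159 ± 15.1 (SD, n = 5) CPM in vehicle sgScramble mice (adjusted p = 0.166). In sgOgfod1 leukemias Ccl9 averaged 141 ± 85.5 (SD, n = 6) CPM under treatment and 155 ± 41.1 (SD, n = 5) CPM under vehicle, with adjusted p = 0.844. Ccl3 averaged 12.2 ± 9.52 (SD, n = 6) CPM under treatment and 7.21 ± 1.69 (SD, n = 5) CPM under vehicle there (adjusted p = 0.256). Ccl5, which attracts T cells, stayed under 1.4 CPM in every library, and its log2 values were 3.01 ± 1.07 in sgScramble (adjusted p = 0.0647) and 1.37 ± 0.98 in sgOgfod1 leukemias (adjusted p = 0.398). In sgScramble leukemias DESeq2 called Ccl3 (log2 1.05, adjusted p = 0.0428) and Ccl5 (3.03, 0.0134), and edgeR called Ccl5 without the 2 libraries that stood apart (3.23, 0.0145).

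The CXC ligands Cxcl1, Cxcl2 and Cxcl3, which attract neutrophils through Cxcr2, share a stretch of chromosome 5 with Ppbp and Pf4 (90768518 to 90905938). All 3 were higher under treatment in both genotypes. Cxcl2 (ENSMUSG00000058427) had the smallest adjusted p of the members. It had 8.15 to 56.2 CPM (median 15.7) in treated sgScramble mice, against 0.147, 0.227, 0.160, 0.366 and 0.535 CPM in vehicle sgScramble mice. It had 5.99 to 60.4 CPM (median 16.3) in treated sgOgfod1 mice, against 0.848, 1.39, 0.590, 0.511 and 1.09 CPM in vehicle sgOgfod1 mice. The groups were apart in both genotypes. The log2 fold changes were 6.33 ± 0.67 (adjusted p = 5.79e-06) in sgScramble and 4.60 ± 0.61 (adjusted p = 7.51e-05) in sgOgfod1 leukemias.

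Cxcl3 had 1.63 to 12.5 CPM (median 2.80) in treated sgScramble mice, against 0, 0.175, 0.196, 0.234 and 0.146 CPM in vehicle sgScramble mice. In treated sgOgfod1 mice it had 0 to 6.05 CPM (median 0.992), against 0.0386, 0.0165, 0.0437, 0.0730 and 0.0202 CPM in vehicle sgOgfod1 mice. The treated sgScramble libraries were all above the vehicle ones, while 1 of the 6 treated sgOgfod1 libraries had no read. The log2 fold change was 5.02 ± 0.97 in sgScramble (adjusted p = 0.00149) and 5.42 ± 1.09 in sgOgfod1 leukemias (adjusted p = 0.00278). Cxcl2 and Cxcl3 share 27.1% of the 28-base windows of their coding sequences, so reads of footprint length may be counted for either or lost, and their values are uncertain to that extent.

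Cxcl1 was at few reads in all groups. It had 0.322 to 2.87 CPM (median 0.972) in treated sgScramble mice, against 0.206, 0.0700, 0.107, 0.0146 and 0 CPM in vehicle sgScramble mice. It had 0.0493 to 1.75 CPM (median 0.478) in treated sgOgfod1 mice, against 0, 0, 0, 0 and 0.0606 CPM in vehicle sgOgfod1 mice. The sgScramble groups did not overlap, while the lowest treated sgOgfod1 library was below the 1 vehicle library with reads. The count ratios were 20.3 (95% counting interval 12.7 to 34.4) in sgScramble and, on 3 vehicle reads, 50.2 (16.9 to 246) in sgOgfod1 leukemias. The adjusted p was 0.00798 in sgScramble and 0.00498 in sgOgfod1 leukemias. The sgScramble call was lost with the library-number term (log2 4.22, adjusted p = 0.0548). All 3 vehicle sgOgfod1 reads came from replicate 5. Without it the fitted log2 value was 8.18 in place of 5.42 (adjusted p = 0.00582).

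The promoters of this trio are shown because the genes rose together, with that of Cxcl10 for comparison, which did not pass. They are the 250 bases before the RefSeq start (GRCm38.p6), read 5′ to 3′ on the strand of the gene. Capitals mark matches to kappa-B motifs, bound by NF-kappa-B, and, in Cxcl10, to an interferon-stimulated motif. The longer kappa-B motif is GGG and TTTCC with 2 bases of any kind between them, and the shorter is GGAATTTCC. The interferon-stimulated motif is GAAA, 2 bases of any kind and GAAA. Matches on both strands are marked, and the shorter kappa-B motif can lie inside the longer.
Cxcl1, chr5:90890995-90891244, plus strand: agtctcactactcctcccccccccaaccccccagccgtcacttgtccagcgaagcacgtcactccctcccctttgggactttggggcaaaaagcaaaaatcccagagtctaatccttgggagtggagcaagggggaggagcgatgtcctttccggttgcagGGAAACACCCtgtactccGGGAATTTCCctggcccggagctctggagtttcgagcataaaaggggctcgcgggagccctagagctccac
Cxcl2, chr5:90903649-90903898, plus strand: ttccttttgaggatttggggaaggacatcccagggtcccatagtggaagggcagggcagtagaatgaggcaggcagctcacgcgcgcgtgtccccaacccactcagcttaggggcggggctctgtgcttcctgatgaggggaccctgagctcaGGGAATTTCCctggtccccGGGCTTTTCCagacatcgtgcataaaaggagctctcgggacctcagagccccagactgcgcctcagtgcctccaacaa
Cxcl3, chr5:90785851-90786100, plus strand: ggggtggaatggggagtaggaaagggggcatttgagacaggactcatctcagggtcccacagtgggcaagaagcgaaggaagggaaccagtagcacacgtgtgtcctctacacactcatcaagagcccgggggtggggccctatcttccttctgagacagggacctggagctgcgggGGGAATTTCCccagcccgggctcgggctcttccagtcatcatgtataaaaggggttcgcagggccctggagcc
Cxcl10, chr5:92348890-92349139, minus strand: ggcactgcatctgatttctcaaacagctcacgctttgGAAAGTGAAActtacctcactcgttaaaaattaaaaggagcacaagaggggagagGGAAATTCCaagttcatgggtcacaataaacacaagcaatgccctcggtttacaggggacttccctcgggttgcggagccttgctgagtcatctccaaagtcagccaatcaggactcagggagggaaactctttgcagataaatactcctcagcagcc

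The 3 neutrophil ligands each hold the same 10 bases, GGGAATTTCC, from 71 to 62 bases before the start in Cxcl1, 97 to 88 in Cxcl2 and 73 to 64 in Cxcl3. A promoter window with the 50 bases after the start included was present for 23 of the 30 members. GGAATTTCC was found in 4 of these 23 (Cxcl1, Cxcl2, Cxcl3 and Cxcl10) and in 0.317% of all 32851 RefSeq windows. The longer kappa-B motif was found in 4 (Ccl9, Cxcl1, Cxcl2 and Cxcl3) and in 1.63% of all windows, and the interferon-stimulated motif in 1 (Cxcl10) and in 3.44%. Other motifs were at 1 member for the STAT motif TTCNNNGAA (8.3% of all windows), 4 for the AP-1 motif TGANTCA (7.81%) and 8 for TATAAA (13.6%). The 6 motifs were chosen after the promoters had been read, and a match describes letters, not binding.

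Pf4 and Ppbp, the chemokines of platelet granules, were at almost no RNA under vehicle and rose in both genotypes. Pf4 (ENSMUSG00000029373) had 1.39 to 8.57 CPM (median 1.76) in treated sgScramble mice, against 0, 0.0175, 0.107, 0.0732 and 0.259 CPM in vehicle sgScramble mice. It had 0.509 to 22.0 CPM (median 3.10) in treated sgOgfod1 mice, against 0.193, 0.198, 0.175, 0.243 and 0.343 CPM in vehicle sgOgfod1 mice. In both genotypes treated and vehicle libraries were apart. The log2 fold change was 5.33 ± 0.92 in sgScramble (adjusted p = 0.000572) and 4.73 ± 0.88 in sgOgfod1 leukemias (adjusted p = 0.00143).

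Ppbp had 1.10 to 5.64 CPM (median 2.10) in treated sgScramble mice and 0, 0.0175, 0, 0.0586 and 0.0162 CPM in vehicle sgScramble mice, a count ratio of 150 on 6 vehicle reads (95% counting interval 68.9 to 410). It had 0.0474 to 17.7 CPM (median 3.07) in treated sgOgfod1 mice and 0.405, 0.0330, 0.109, 0.122 and 0 CPM in vehicle sgOgfod1 mice, where the ranges overlapped. The adjusted p were 0.000885 in sgScramble and 0.00394 in sgOgfod1 leukemias (fitted log2 5.19 ± 1.10). In RNA, 8.6% of all genes were higher under treatment in sgScramble and 5.69% in sgOgfod1 leukemias. Of 11 other megakaryocyte and platelet markers tested in RNA, 1 was higher under treatment in each genotype. The list of 12 summed to 21.6 to 45.4 RNA CPM in treated sgOgfod1, 37.6 to 60.0 in treated sgScramble, 16.1 to 27.8 in vehicle sgOgfod1 and 29.3 to 36.9 in vehicle sgScramble mice.

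Of the remaining ligands, Cxcl12, Cxcl9 and Cxcl16 were higher under treatment in sgScramble leukemias. Cxcl12, the marrow retention signal, had 2.90 to 36.5 CPM (median 4.51) in treated sgScramble mice, against 1.00, 0.717, 1.10, 0.630 and 0.745 CPM in vehicle sgScramble mice. All treated libraries were above all vehicle libraries, with replicates 4, 6 and 7 the highest, and the log2 fold change was 4.04 ± 0.68 (adjusted p = 0.000474). In treated sgOgfod1 mice it had 2.35 to 15.1 CPM (median 5.73), against 2.39, 2.11, 0.852, 1.85 and 1.48 CPM in vehicle sgOgfod1 mice. That value, 1.97 ± 0.62, passed narrowly (adjusted p = 0.0459), and leaving out any 1 of 9 of the 11 libraries ended the call. These are treated replicates 1, 2, 3 and 6 and all 5 vehicle replicates, with log2 values of 1.59 to 2.11 and adjusted p up to 0.113 without one of them. The call was also lost without the filter (1.98, adjusted p = 0.102), without the 2 libraries that stood apart (1.59, 0.0614) and with the library-number term (1.83, 0.0877). Marrow stroma is a known source of Cxcl12. Under treatment 8.6% of all genes were higher in RNA of sgScramble and 5.69% in sgOgfod1 leukemias. Of 10 stroma markers 7 were tested and 1 was higher in each genotype. Their RNA sum was 5.62 to 15.1 CPM in treated sgOgfod1, 4.17 to 33.2 in treated sgScramble, 13.4 to 34.6 in vehicle sgOgfod1 and 22.4 to 39.5 in vehicle sgScramble mice, with no marker at 0 throughout a group.

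Cxcl16, a ligand that also exists in membrane-bound form, had 1.22 to 32.2 CPM (median 2.74) in treated sgScramble mice, against 1.36, 2.26, 1.49, 0.908 and 1.17 CPM in vehicle sgScramble mice. Treated replicates 4, 6 and 7 were above 3 times the highest vehicle value, and the other 4 treated libraries were not. The log2 fold change was 2.62 ± 0.75 (adjusted p = 0.0226). It lost the call without treated replicate 4 (log2 1.77, adjusted p = 0.062) and without vehicle replicate 1, 4 or 5 (log2 2.49 to 2.60, adjusted p 0.055 to 0.066). The filter left out (2.61, 0.0595) and the library-number term (2.73, 0.181) also ended it. In sgOgfod1 leukemias it averaged 4.11 ± 3.25 (SD, n = 6) CPM under treatment and 1.94 ± 1.02 (SD, n = 5) CPM under vehicle (adjusted p = 0.36). Exons of Cxcl16 overlap Zmynd15 on the other strand, and the RNA libraries keep no strand, so reads of the pair cannot be told apart.

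Cxcl9 and Cxcl10 are interferon-induced ligands of Cxcr3, the receptor of activated T cells. Cxcl9 had 0.627 to 3.92 CPM (median 1.09) in treated sgScramble mice, against 0.147, 0.437, 1.16, 0.249 and 0.113 CPM in vehicle sgScramble mice, with overlap (log2 2.09 ± 0.63, adjusted p = 0.0287). The call was lost without treated replicate 7 (log2 1.78, adjusted p = 0.0643) and without vehicle replicate 1, 2, 4 or 5 (log2 1.85 to 2.11, adjusted p 0.0647 to 0.0823), and with the library-number term (2.03, 0.145). In sgOgfod1 leukemias it averaged 1.25 ± 0.776 (SD, n = 6) CPM under treatment and 0.773 ± 0.294 (SD, n = 5) CPM under vehicle (adjusted p = 0.504). Cxcl10, whose exons overlap Art3 on the other strand, averaged 3.47 ± 1.56 (SD, n = 7) CPM in treated and 3.17 ± 0.882 (SD, n = 5) CPM in vehicle sgScramble mice, with a log2 difference of 0.13 ± 0.40 (adjusted p = 0.885). In sgOgfod1 mice it averaged 3.71 ± 1.51 (SD, n = 6) CPM under treatment and 2.13 ± 1.09 (SD, n = 5) CPM under vehicle (adjusted p = 0.23).

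Ccl17, Ccl22 and Ccl24, ligands linked to type 2 immune responses, stayed low. Ccl24 reached at most 2.43 CPM, Ccl17 0.951 CPM and Ccl22 0.639 CPM in any library. Ccl22 was at 0 in all 6 treated sgOgfod1 and all 5 vehicle sgScramble libraries, which allows up to 0.00956 CPM over the treated sgOgfod1 and 0.0108 CPM over the vehicle sgScramble group (3 counts of the group's scaled total). Neither Ccl17 (adjusted p = 0.321 in sgScramble, 0.819 in sgOgfod1) nor Ccl24 (0.152 and 0.774) passed.

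Markers of macrophages moved with several of these ligands. Of 14 macrophage markers, 13 were higher under treatment in sgScramble and 8 in sgOgfod1 leukemias, with median RNA log2 fold changes of 5.68 and 2.84. Of all genes, 8.6% were higher in sgScramble and 5.69% in sgOgfod1 leukemias. Adgre1 was already at 227 to 461 CPM under vehicle, and its median was lower under treatment, at 153.8 CPM in treated and 281.3 in vehicle sgOgfod1 mice, and at 314.7 in treated and 433.8 in vehicle sgScramble mice. With it, the 14 markers summed to 168.6 to 929.3 CPM in treated sgOgfod1 mice, against 267.2 to 346.6 in vehicle sgOgfod1 mice, and to 351.7 to 3620 in treated sgScramble mice, against 361.2 to 477.5 in vehicle sgScramble mice, so those sums overlapped. The sum of the other 13 markers was 80.7, 100.2, 156 and 160.1 RNA CPM in treated sgScramble replicates 5, 1, 2 and 3, and 2936, 1377 and 1454 in replicates 4, 6 and 7. In treated sgOgfod1 replicates 1 to 6 it was 365.5, 242.1, 776.1, 94.9, 58.5 and 249.4 CPM. In vehicle mice it was 39.5 to 58.3 CPM with sgOgfod1 and 11.4 to 21.6 CPM with sgScramble. None of the 14 was at 0 throughout a group. The part of macrophages in the ligand changes was not tested. Of the lists for other cells, endothelium had 1 of 6 tested markers called under treatment (higher) in sgScramble and 0 of 6 in sgOgfod1 leukemias. T and NK cells had 2 of 10 (higher) and 0 of 10, and B cells 1 of 5 (higher) and 0 of 5. Dendritic cells had 1 of 7 (higher) and 3 of 7 (lower), and erythroid cells 2 of 7 (1 higher, 1 lower) and 3 of 7 (lower). Lower among all genes were 4.34% in sgScramble and 4.18% in sgOgfod1 leukemias, and the shares higher are given above.

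**Figure D2:**
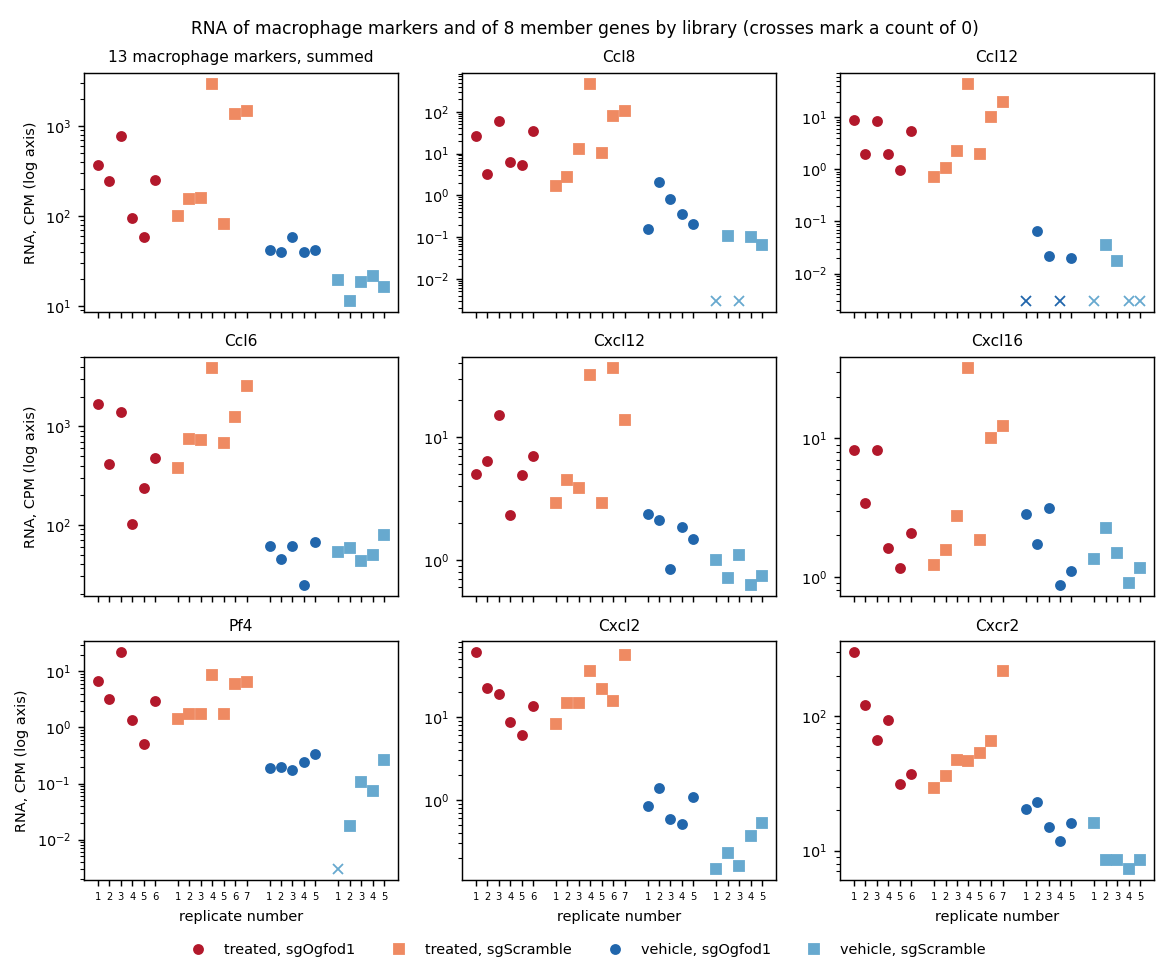
RNA in each of 23 libraries, in CPM on a log axis, for the sum of 13 macrophage markers (top left) and for 8 member genes; the horizontal axis gives the replicate number within each group, and crosses mark a count of 0. Treated sgScramble replicates 4, 6 and 7 are the highest of their group for the marker sum, Ccl8, Ccl12, Cxcl12, Cxcl16 and Pf4.

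The 12 mice with a footprint library do not include those 3 mice or treated sgOgfod1 replicates 1, 2, 3 and 6. In RNA of these 12 mice, 12 members were higher and 3 lower under treatment in sgScramble leukemias, against 3.98% and 3.82% of all genes. This count, like that for sgOgfod1 leukemias below, includes genes that passed the filter through treated libraries, so neither describes all members. One such gene was Ccl12, with 2, 1 and 0 RNA reads in vehicle sgScramble and 1, 0 and 1 in vehicle sgOgfod1 mice. Ccl8 had a log2 fold change of 6.85 ± 0.99 (adjusted p = 0.00164), Ccl12 6.27 ± 0.82 (0.000623), Ccl6 3.38 ± 0.43 (0.00089), Cxcl2 5.55 ± 0.48 (7.14e-05) and Cxcl12 2.03 ± 0.36 (0.00365). Cxcl16 had 0.15 ± 0.43 (0.936), Cxcl9 0.51 ± 0.68 (0.818), Ccl2 1.53 ± 0.62 (0.176) and Cxcl1 3.41 ± 1.19 (0.105). The 3 lower genes were the receptors Ccr2 at -1.36 ± 0.36 (0.0396), Cxcr4 at -0.54 ± 0.15 (0.0429) and Cx3cr1 at -2.87 ± 0.71 (0.0289). In sgOgfod1 leukemias 6 members were higher in the same mice, with 2 treated mice left, against 1.5% of all genes higher. The 8 calls of all mice that were lost there were Ccl6 (log2 1.73 ± 0.44, adjusted p = 0.0596), Ccl7 (1.55 ± 0.73, 0.311), Cxcl1 (1.64 ± 1.43, 0.623), Cxcl12 (1.38 ± 0.40, 0.0803), Pf4 (1.86 ± 0.69, 0.184), Ppbp (3.08 ± 1.08, 0.154), Ccrl2 (0.78 ± 0.34, 0.269) and Ccr2 (-1.55 ± 0.46, 0.0991).

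Among the receptors, Cxcr2 and Ccrl2 rose, while Ccr2, Cx3cr1 and Cxcr4 fell in RNA or footprints. Cxcr2, the neutrophil receptor for Cxcl1, Cxcl2 and Cxcl3, was higher in every treated library. It (ENSMUSG00000026180, chromosome 1, 74153989 to 74161246) had 29.4 to 219 CPM (median 47.7) in treated sgScramble mice, against 16, 8.45, 8.57, 7.29 and 8.54 CPM in vehicle sgScramble mice. It had 31.4 to 301 CPM (median 80.3) in treated sgOgfod1 mice, against 20.4, 22.9, 15.1, 11.8 and 16 CPM in vehicle sgOgfod1 mice. No treated library fell into the vehicle range. The RNA log2 fold change was 2.86 ± 0.55 in sgScramble (adjusted p = 0.0013) and 2.66 ± 0.55 in sgOgfod1 leukemias (adjusted p = 0.00327).

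Footprints on Cxcr2 were 7.28, 13.4, 18.2 and 17.2 CPM in treated sgScramble mice, against 3.27, 2.24 and 3.28 CPM in vehicle sgScramble mice (log2 2.23 ± 0.42, adjusted p = 0.00663). In sgOgfod1 mice they were 24.3 and 9.46 CPM under treatment and 7.00, 4.61 and 5.54 CPM under vehicle (log2 1.55 ± 0.43, adjusted p = 0.052), apart but short of the threshold. Cxcr2 was called there by edgeR with RLE scaling (log2 1.56, adjusted p = 0.0487) and without the filter (1.56, 6.34e-05), and by DESeq2 (1.57, 0.00222). With the replicate number as a block it was not called. Of 11 neutrophil markers, 9 were higher in RNA under treatment in sgScramble and 8 in sgOgfod1 leukemias, against 8.6% and 5.69% of all genes. Their sum was 17980 to 82670 CPM in treated sgOgfod1, 15130 to 53380 in treated sgScramble, 6770 to 16780 in vehicle sgOgfod1 and 6626 to 12720 in vehicle sgScramble mice, and its part in the Cxcr2 change was not tested.

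Ccrl2, an atypical receptor that binds chemerin, was the second receptor to rise in RNA. It had 4.51 to 24.1 CPM (median 8.53) in treated sgScramble mice, against 2.77, 3.38, 2.61, 2.87 and 2.90 CPM in vehicle sgScramble mice. It had 4.10 to 19.4 CPM (median 7.62) in treated sgOgfod1 mice, against 2.70, 2.86, 3.58, 1.68 and 3.76 CPM in vehicle sgOgfod1 mice. The groups were apart in both genotypes, with a log2 fold change of 1.83 ± 0.39 in sgScramble (adjusted p = 0.00296) and 1.67 ± 0.39 in sgOgfod1 leukemias (adjusted p = 0.0084). Its footprints averaged 2.51 ± 0.578 (SD, n = 4) CPM in treated sgScramble and 1.31 ± 0.521 (SD, n = 3) CPM in vehicle sgScramble mice (adjusted p = 0.112).

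Ccr2 (ENSMUSG00000049103, chromosome 9, 124101950 to 124113557), through which Ccl2 recruits monocytes, was the only member lower in RNA by the test over all mice. In treated sgOgfod1 mice it had 21.9 to 86.3 CPM (median 58.4), against 244, 127, 172, 76.9 and 185 CPM in vehicle sgOgfod1 mice. All 6 treated libraries were below the vehicle median, and the log2 fold change was -1.53 ± 0.39 (adjusted p = 0.0132). In treated sgScramble mice it had 45.3 to 176 CPM (median 52.6), against 127, 136, 126, 132 and 103 CPM in vehicle sgScramble mice, and 6 of 7 treated libraries were below the vehicle median (log2 -0.58 ± 0.37, adjusted p = 0.336).

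Ribosome footprints on Ccr2 fell in both genotypes. They were 1.00 and 4.93 CPM in treated sgOgfod1 mice, against 23.1, 8.40 and 20.5 CPM in vehicle sgOgfod1 mice (log2 -2.58 ± 0.54, adjusted p = 0.0186). Without treated sgOgfod1 replicate 5 the log2 value was -4.13 (adjusted p = 0.00273). They were 3.15, 4.04, 5.14 and 3.52 CPM in treated sgScramble mice, against 11.6, 10.7 and 11.3 CPM in vehicle sgScramble mice (log2 -1.51 ± 0.43, adjusted p = 0.0417). The groups did not overlap in either genotype, but the sgScramble call was lost without any 1 of its 7 libraries, with log2 values of -1.65 to -1.41 and adjusted p of 0.0617 to 0.112, and without the filter on low counts (-1.52, 0.0995). Of the 28-base windows of the Ccr2 coding sequence, 19.3% also occur elsewhere, so its footprint counts are uncertain to that extent.

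Cx3cr1, the receptor of patrolling monocytes and tissue macrophages, fell most in footprints. There were 0.20 and 0.103 CPM in treated sgOgfod1 mice, against 3.32, 2.47 and 5.48 CPM in vehicle sgOgfod1 mice. There were 0.109, 1.31, 0.441 and 0.676 CPM in treated sgScramble mice, against 2.88, 3.74 and 3.28 CPM in vehicle sgScramble mice. Treated and vehicle mice were apart in both genotypes. Cx3cr1 reached the filter's minimum in 6 vehicle footprint libraries but in only 1 treated one, with sgScramble. It passed the filter through vehicle libraries, where it was high, so its place among the receptors that fell was partly fixed by the filter. The footprint log2 fold change was -4.57 ± 0.70 in sgOgfod1 (adjusted p = 0.00165), on 3 treated and 132 vehicle reads, and -2.36 ± 0.45 in sgScramble leukemias (adjusted p = 0.00298), on 20 and 90. In RNA, Cx3cr1 had 0.0821 to 7.86 CPM (median 1.51) in treated sgOgfod1 mice, against 24.6, 9.38, 14.4, 3.12 and 12.8 CPM in vehicle sgOgfod1 mice, with a log2 value of -2.40 ± 0.86 (adjusted p = 0.078). It had 0.407 to 15.6 CPM (median 1.51) in treated sgScramble mice, against 13.0, 14.4, 10.4, 11.3 and 12.5 CPM in vehicle sgScramble mice, with -1.17 ± 0.80 (adjusted p = 0.374). An exon of Cx3cr1 overlaps Gm33858 on the other strand.

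Cxcr4 (ENSMUSG00000045382, chromosome 1, 128588199 to 128592293), which anchors leukemic cells to Cxcl12 in the marrow, fell in footprints in both genotypes. They were 176, 237, 208 and 154 CPM in treated sgScramble mice, against 301, 311 and 342 CPM in vehicle sgScramble mice (log2 -0.71 ± 0.13, adjusted p = 0.00171). They were 149.6 and 132 CPM in treated sgOgfod1 mice, against 244, 201 and 224 CPM in vehicle sgOgfod1 mice (log2 -0.66 ± 0.16, adjusted p = 0.0155). No treated mouse reached the vehicle range of its genotype. The sgOgfod1 call was lost without treated replicate 5 (log2 -0.57, adjusted p = 0.104) and without vehicle replicate 3 (log2 -0.60, adjusted p = 0.054). Cxcr4 RNA had 2.99 to 59.3 CPM (median 40.9) in treated sgScramble mice, against 53.3, 66.5, 61.0, 56.5 and 70.0 CPM in vehicle sgScramble mice. It had 18.1 to 42.5 CPM (median 29.6) in treated sgOgfod1 mice, against 57.0, 43.1, 49.7, 40.5 and 49.3 CPM in vehicle sgOgfod1 mice. All treated libraries lay below the vehicle median of their genotype, with a log2 value of -0.73 ± 0.36 in sgScramble (adjusted p = 0.203) and -0.70 ± 0.38 in sgOgfod1 leukemias (adjusted p = 0.249), and neither passed. The low sgScramble extreme was replicate 4, at 2.99 CPM. Without that library and treated sgOgfod1 replicate 3 the log2 value was -0.52 in sgScramble (adjusted p = 0.0384) and -0.59 in sgOgfod1 leukemias (adjusted p = 0.0286).

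**Figure D3:**
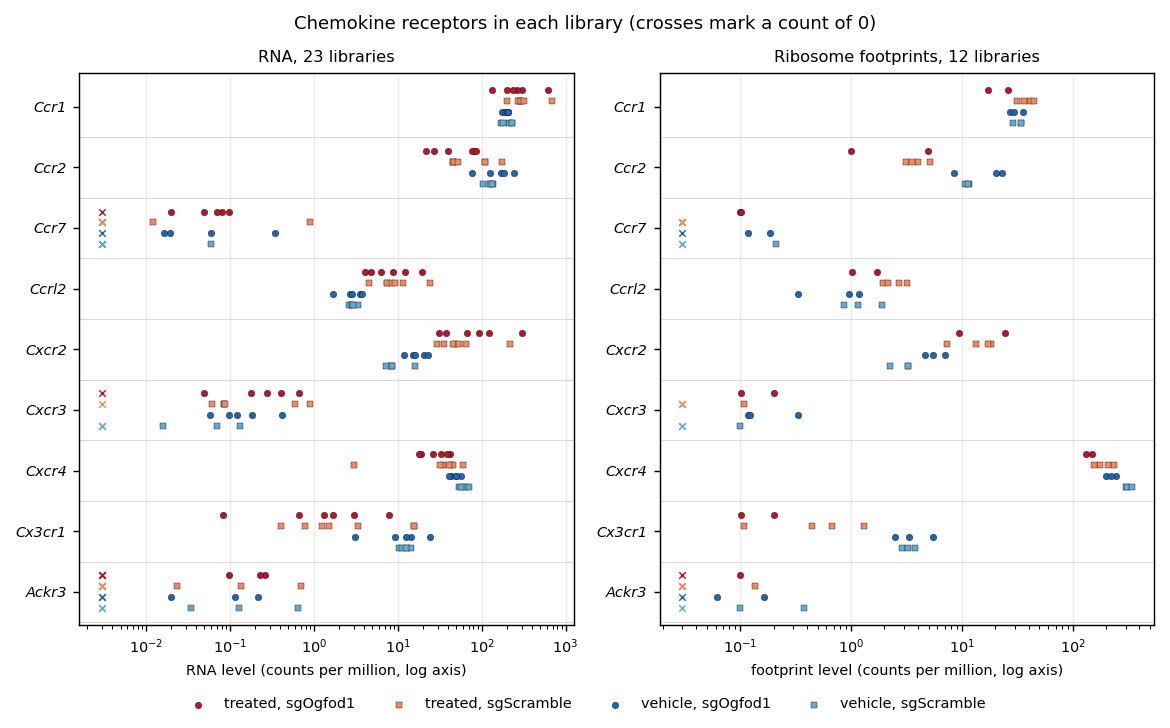
Level of the 9 receptors in each RNA library (left) and each footprint library (right), in CPM on log axes; each point is 1 mouse, colors and shapes give the 4 groups, and crosses mark a count of 0. Cxcr2 is higher in the treated groups in both panels, while Ccr2, Cxcr4 and Cx3cr1 footprints are lower in them.

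Ccr1, the receptor of Ccl3, Ccl6 and Ccl9 and the most abundant receptor in RNA, did not pass for treatment in either assay. Its RNA averaged 333 ± 159 (SD, n = 7) CPM in treated and 204 ± 27.7 (SD, n = 5) CPM in vehicle sgScramble mice (adjusted p = 0.111), and 293 ± 169 (SD, n = 6) CPM in treated and 196 ± 15.0 (SD, n = 5) CPM in vehicle sgOgfod1 mice (adjusted p = 0.217). Ccr7, which guides cells to lymph nodes, Cxcr3 and Ackr3 stayed below 1 CPM in every RNA library. Cxcr3 had adjusted p of 0.171 in sgScramble and 0.78 in sgOgfod1 leukemias, and Ackr3 of 0.9 and 0.893.

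Footprints were read on fewer members, since 13 of the 30 passed the filter, 7 ligands and 6 receptors. In sgScramble leukemias 3 were higher under treatment (Ccl4, Ccl6 and Cxcr2) and 3 lower (Ccr2, Cxcr4 and Cx3cr1), against 8.12% and 7.44% of 18290 genes. In sgOgfod1 leukemias 0 were higher and 3 lower (Ccr2, Cxcr4 and Cx3cr1), against 4.65% and 3.56%. Ccl4 passed the filter through treated libraries and Cx3cr1 through vehicle libraries, so these counts do not describe all members. Ligand footprints that followed the RNA were those of Ccl6 and Ccl4. Ccl6 had 57.6, 130.4, 87.8 and 78.9 CPM in treated sgScramble mice, against 8.04, 5.11 and 8.24 CPM in vehicle sgScramble mice (log2 3.62 ± 0.43, adjusted p = 0.00123). In sgOgfod1 mice it had 10.9 and 25.9 CPM under treatment and 7.00, 3.30 and 7.88 CPM under vehicle, apart but not past the threshold (log2 1.52 ± 0.49, adjusted p = 0.0967). Ccl6 was called there by DESeq2 (log2 1.60, adjusted p = 0.0236) and by edgeR with the replicate block (1.72, 0.000749). It was not called with RLE scaling or without the filter.

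Ccl4 had 0.978, 0.714, 2.35 and 1.76 footprint CPM in treated sgScramble mice, against 0.298, 0.249 and 0.106 CPM in vehicle sgScramble mice, a log2 fold change of 2.63 ± 0.64 (adjusted p = 0.0115) on 44 and 6 reads. The call was lost without vehicle replicate 5 (log2 2.30, adjusted p = 0.0545), and Ccl4 passed the filter through treated libraries. It reached the filter's minimum in only 2 libraries, both treated sgScramble. Ccl4 was therefore tested in only 5 of the 7 fits that left out 1 library. In sgOgfod1 mice it had 0.30 and 0.514 CPM under treatment and 0.237, 0 and 0.0616 CPM under vehicle (adjusted p = 0.255). The ligands with the largest RNA changes gave few footprints. Ccl8 had 9 reads over 4 treated sgScramble mice and 0 over 3 vehicle sgScramble mice, and 19 over 2 treated sgOgfod1 mice and 3 over 3 vehicle sgOgfod1 mice. Ccl12 had 6 treated and 1 vehicle read in sgScramble, and 3 and 0 in sgOgfod1 mice. Cxcl2 had 20 treated and 3 vehicle reads in sgScramble and 8 and 1 in sgOgfod1 mice. These 3 did not pass the filter on low counts. Without the filter edgeR called Ccl8 in sgOgfod1 (log2 3.19, adjusted p = 0.0152) and sgScramble leukemias (adjusted p = 0.0482), and neither Ccl12 nor Cxcl2. The footprint count ratio of Cxcl2 was 5.78 in sgScramble (95% counting interval 1.71 to 30.4) and 12.5 in sgOgfod1 mice (1.67 to 553).

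**Figure D4:**
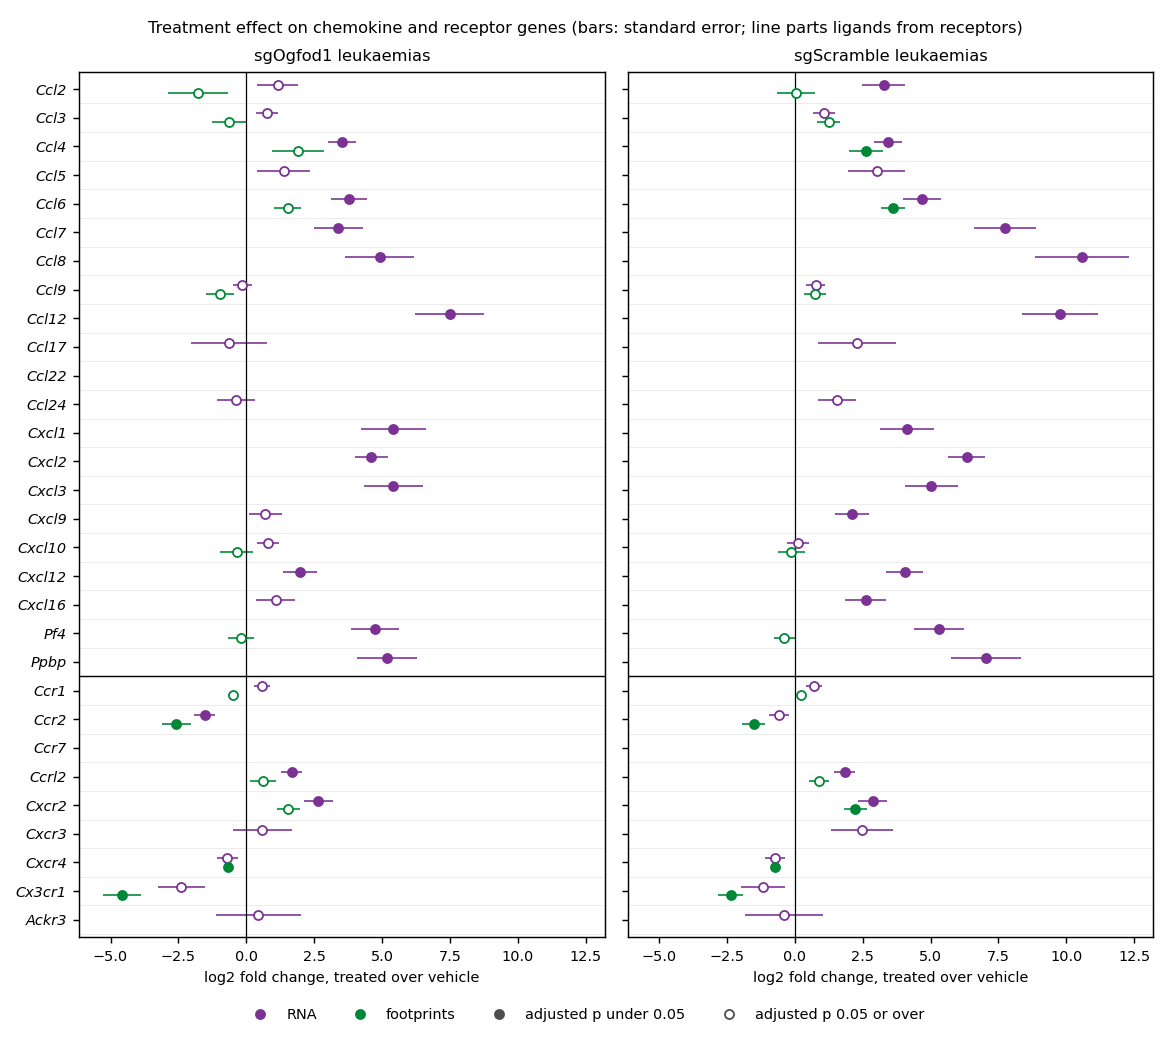
Log2 fold change of treated over vehicle mice with its standard error, for sgOgfod1 (left) and sgScramble leukemias (right), for RNA and footprints; filled points passed an adjusted p of 0.05, and members not tested have no point. Ligands (upper block) lie mostly to the right of 0 in RNA, and Ccr2, Cxcr4 and Cx3cr1 to the left of it in footprints.

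The ratio of footprint CPM to RNA CPM of the same mouse was near 5 for Cxcr4 in 11 of 12 mice and near 0.1 for Ccr2. Cxcr4 had 4.59 and 4.97 in treated sgOgfod1 mice, 5.03, 5.41, 4.57 and 2.61 in treated sgScramble mice, 4.91, 4.97 and 4.54 in vehicle sgOgfod1 mice and 4.53, 5.10 and 4.88 in vehicle sgScramble mice. Ccr2 had 0.0457 and 0.0643 in treated sgOgfod1 mice and 0.0695, 0.0877, 0.109 and 0.0669 in treated sgScramble mice. In vehicle mice Ccr2 had 0.135, 0.109 and 0.111 with sgOgfod1 and 0.0857, 0.0851 and 0.110 with sgScramble. In vehicle sgScramble mice the footprint level per kilobase of coding sequence over the RNA level per kilobase of exon was 3.02 on the log2 scale for Cxcr4, the 95.6th percentile of 9881 genes, whose median was 0.01. It was -1.26 for Ccr1 (11.6th percentile), -0.83 for Ccr2 (21.2), -0.70 for Ccl6 (25.1) and 0.80 for Ccl9 (74.2).

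The test of footprints relative to RNA called 1 of 26 members, Pf4, lower under treatment in sgScramble leukemias, against 0.762% of 28606 genes lower. Pf4 had 1.41, 1.90, 1.47 and 1.08 footprint CPM in treated sgScramble mice, against 2.08, 2.24 and 1.48 CPM in vehicle sgScramble mice, so its footprints overlapped while its RNA was far higher under treatment. In these vehicle sgScramble mice Pf4 had only 1, 6 and 16 RNA reads and 21, 18 and 14 footprint reads, so its vehicle ratio is uncertain. In sgOgfod1 mice it had 1.30 and 1.34 footprint CPM under treatment and 0.475, 2.31 and 1.78 CPM under vehicle. The change in footprints relative to RNA was -4.29 ± 0.92 on the log2 scale (adjusted p = 0.022) in sgScramble and -1.73 ± 1.05 (adjusted p = 1) in sgOgfod1 leukemias. The sgScramble call was lost without treated replicate 1 or 2, or without vehicle replicate 2 or 3, with log2 values of -4.43 to -3.57 and adjusted p of 0.0537 to 0.091. In sgOgfod1 leukemias, and for genotype under vehicle and under treatment, 0 members were called in this measure by edgeR, against 0.0524%, 0.0769% and 0.0664% of all genes. The counts at an unadjusted p under 0.05 were 1, 1 and 1. Ccr2 had the smallest adjusted p of these, with -0.98 ± 0.24 for treatment in sgOgfod1 leukemias (adjusted p = 0.276).

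**Figure D5:**
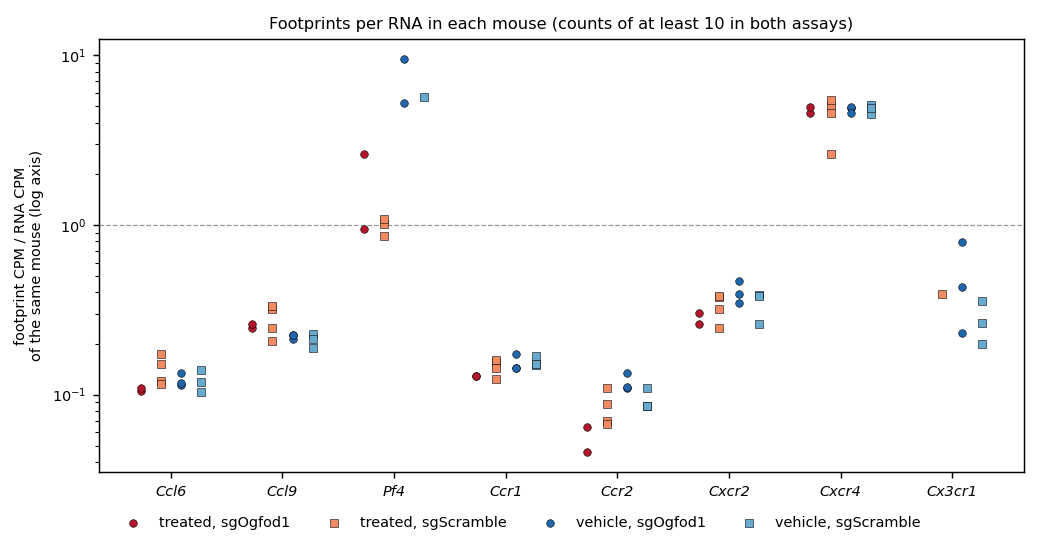
Footprint CPM over RNA CPM of the same mouse, on a log axis, for 8 members; each point is 1 mouse with at least 10 reads in both assays, and colors and shapes give the 4 groups. Cxcr4 lies near 5 in nearly all mice, Ccr2 near 0.1, and Pf4 is higher in the vehicle mice that could be plotted.

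Few of these genes were called between the genotypes. In RNA, 0 of 28 members were called between sgOgfod1 and sgScramble leukemias by edgeR, under treatment or under vehicle, against 0.391% and 0.116% of all genes. At an unadjusted p under 0.05 there were 4 under treatment and 3 under vehicle. In the 12 mice with footprints 2 were lower in treated sgOgfod1 mice, Ccl3 (log2 -2.02, adjusted p = 0.0113) and Cxcl3 (-2.06, 0.0343), against 1.21% of all genes lower. Under treatment 23 of the 28 log2 values were negative, with a median of -0.96 over the ligands, -0.26 over the receptors and -0.04 over all genes. The smallest adjusted p was that of Ccl9, which had 26.8 to 249 CPM (median 116) in treated sgOgfod1 mice and 172 to 441 CPM (median 234) in treated sgScramble mice (log2 -0.94 ± 0.34, adjusted p = 0.211). Under vehicle the smallest was that of Ccl7, at 0.521, 0.611, 0.57, 0.365 and 0.182 CPM in sgOgfod1 mice and 0, 0.105, 0.0178, 0 and 0.0810 CPM in sgScramble mice (log2 3.33 ± 1.10, adjusted p = 0.573). Those Ccl7 groups did not overlap. The sum of 13 macrophage markers, given above, was higher in vehicle sgOgfod1 than in vehicle sgScramble mice, also without overlap. With Adgre1 the direction was the other way. All 14 summed to 267.2 to 346.6 CPM in vehicle sgOgfod1 and 361.2 to 477.5 in vehicle sgScramble mice, again without overlap. The part of either sum in the Ccl7 difference was not tested.

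In footprints 1 of 13 members was called between genotypes under treatment, Ccr1, against 0.99% of all genes lower. Ccr1 had 17.2 and 25.9 CPM in treated sgOgfod1 mice, against 31.4, 40.9, 44.4 and 36.1 CPM in treated sgScramble mice (log2 -0.82 ± 0.18, adjusted p = 0.0271). The groups did not overlap, but the call was lost without treated sgOgfod1 replicate 4 (log2 -0.56, adjusted p = 0.198) and without treated sgScramble replicate 2 (-0.80, 0.0649) or 3 (-0.75, 0.0851). Just above the threshold were the Ccr1 ligand Ccl6, at -2.27 ± 0.46 (adjusted p = 0.0506), and Ccl3, at -2.28 ± 0.56 (adjusted p = 0.0515). Their footprints were 10.9 and 25.9 CPM for Ccl6 and 0.10 and 1.03 CPM for Ccl3 in treated sgOgfod1 mice. In treated sgScramble mice they were 57.6, 130.4, 87.8 and 78.9 CPM for Ccl6 and 1.96, 3.21, 3.82 and 2.17 CPM for Ccl3. Both were apart by genotype, but Ccl3 reached the filter's minimum in 4 treated and 2 vehicle sgScramble libraries and in 0 sgOgfod1 libraries. It passed the filter through sgScramble libraries, as did Ccl4, so the genes tested do not describe all members. A negative value was found for 12 of the 13 members in this comparison, which rests on 2 sgOgfod1 mice.

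Under vehicle 0 of 13 members were called between genotypes in footprints by edgeR, against 1.81% of all genes, with 1 at an unadjusted p under 0.05. That gene was Cxcr4, at 244, 201 and 224 CPM in vehicle sgOgfod1 mice and 301, 311 and 342 CPM in vehicle sgScramble mice (log2 -0.51 ± 0.14, adjusted p = 0.0648). The interaction, the treatment effect in sgOgfod1 minus that in sgScramble leukemias, called 0 members in RNA and 0 in footprints by edgeR, against 0% and 0.0656% of all genes. At an unadjusted p under 0.05 there were 4 members in RNA and 5 in footprints. The smallest adjusted p was 0.812 in RNA (Ccl7, -4.36 ± 1.32) and 0.363 in footprints (Ccr1, -0.73 ± 0.24).

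The rest of the pathway was read from 3 lists. Of 16 other chemokine ligands, 5 were tested in RNA and none were called in any comparison. Under treatment 8.6% of all genes were higher and 4.34% lower in RNA of sgScramble leukemias, and 5.69% and 4.18% in sgOgfod1 leukemias. Of 16 other chemokine receptors, 9 were tested in RNA, and 3 were higher under treatment in sgScramble leukemias. Among them were the eosinophil receptor Ccr3 (log2 5.96 ± 0.88, adjusted p = 0.000151) and the B cell receptor of Cxcl13, Cxcr5 (1.27 ± 0.37, 0.0249). In sgOgfod1 leukemias Cxcr5 (1.69 ± 0.38, 0.00612) and Ccr3 (3.31 ± 0.77, 0.00809) were higher. Of 6 eosinophil, basophil and mast cell markers 0 were called in sgScramble and 3 were lower in sgOgfod1 leukemias, with RNA sums of 26.1 to 194 CPM in treated sgOgfod1, 199.5 to 478 in treated sgScramble, 74.4 to 989 in vehicle sgOgfod1 and 266 to 441 in vehicle sgScramble mice. Ccr3 footprints relative to RNA were lower under treatment in sgScramble leukemias (-2.42 ± 0.52, 0.0228).

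Of 34 genes that act below chemokine receptors, 7 were higher and 0 lower in RNA under treatment in sgScramble, and 5 higher and 2 lower in sgOgfod1 leukemias. Of all genes 8.6% were higher and 4.34% lower in sgScramble, and 5.69% and 4.18% in sgOgfod1 leukemias. Higher in both were Arrb2, the arrestin that takes receptors off the surface (log2 1.33 ± 0.22 in sgScramble and 1.09 ± 0.22 in sgOgfod1, adjusted p = 0.000424 and 0.00323), and Rgs1, which shortens G protein signals (4.12 ± 0.87 in sgScramble and 4.71 ± 0.93 in sgOgfod1, 0.00282 and 0.00223). The Src family kinase Fgr was also higher in sgScramble (1.54 ± 0.32, 0.00245) and sgOgfod1 leukemias (1.19 ± 0.32, 0.0196). Tiam1, an exchange factor for Rac, was lower under treatment in sgOgfod1 leukemias (-1.02 ± 0.21, 0.00293). Tiam1 was also lower in treated sgOgfod1 than in treated sgScramble mice in RNA (-1.04 ± 0.19, 0.0115) and in footprints (-0.86 ± 0.15, 0.0127). Under vehicle its footprints were lower in sgOgfod1 mice too (-0.60 ± 0.14, 0.0334).

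In footprints, 2 of the 34 were higher and 4 lower under treatment in sgScramble leukemias, against 8.12% and 7.44% of all genes. Named by smallest p, these were Grk2 (-0.41 ± 0.09, adjusted p = 0.00568), Arrb2 (0.61 ± 0.14, 0.00778), Vav1 (-0.34 ± 0.09, 0.0176) and Tiam1 (-0.45 ± 0.13, 0.0232). Tiam1 was the 1 called in sgOgfod1 leukemias (-0.72 ± 0.16, 0.0119), against 4.65% of all genes higher and 3.56% lower. Footprints relative to RNA were lower under treatment in sgScramble leukemias for 4 of the 34, against 0.762% of all genes. These were the G protein subunits Gnb2 (-0.70 ± 0.13, 0.00973), Gnai2 (-0.57 ± 0.11, 0.00973) and Gnb1 (-0.70 ± 0.14, 0.0176), and Grk2 (-0.53 ± 0.12, 0.0269), a kinase that shuts receptors off.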

How the data were processed

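RNA (Smart-seq2, 2 µl of a 20 µl lysate) and ribosome footprints were measured in sorted leukemia cells. The deposited values are raw read counts per gene, made by the authors; the submitters' processing notes name cutadapt, Bowtie2, STAR, SAMtools, featureCounts and the builds GRCm38 and mm10. Versions, strand setting and treatment of multiply mapped reads are not given in the sources used here. Symbols came from a reference annotation for 55141 of 55487 genes. Groups were taken from the labels, and each library is a separate mouse.

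Counts were scaled by TMM, filtered with filterByExpr (minimum count 10) and tested with edgeR 4.0.16 (R 4.3.3, limma 3.58.1), robust quasi-likelihood, with all 4 groups in 1 fit per assay (residual degrees of freedom 19 for RNA and 8 for footprints, biological coefficient of variation 0.494 and 0.156). Footprints relative to RNA were tested as an assay-by-group term with mouse as a block over the 12 mice with both libraries, scaled within each assay. Adjusted p-values in the text are edgeR's unless DESeq2 is named, with a call under 0.05. Those of edgeR are Benjamini-Hochberg adjusted over all genes tested, and those of DESeq2 are as that tool gives them. The scripts were tested on simulated data. Errors written ± after a log2 value are standard errors. Count ratios carry 95% exact binomial intervals, which, like depth, cover counting error only. Alternatives were other scaling, DESeq2 1.42.0, no filter, the replicate number as a block, left-out libraries and a term for library number.

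The members, pathway lists and marker lists were chosen with earlier results of these data known. All 30 members are named; library values are given for members called in at least 1 comparison, and at most 4 called genes per pathway list and comparison are named, smallest p first. A result on 1 further gene of the pathway lists is not reported here.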

Additional observations from a re-analysis of the deposited data

Results flagged for a closer look

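Sets of values (a called gene in a group of 4 to 7 mice) were examined in RNA and footprints. In 14 of 75 sets, all in RNA, 1 library lay far from the rest by Dixon's criterion. Chance alone meets it in about 1 of 20 sets if values are normally distributed, which was not tested for these CPM. Library by library the flags were shared between genes, so they are not independent.

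In treated sgOgfod1 replicate 1, Cxcl2 had 60.4 CPM (5.99 to 22.4 in the other mice), Cxcl3 6.05 (0 to 1.47) and Cxcr2 301.0 (31.4 to 122). In treated sgOgfod1 replicate 3, Cxcl12 had 15.1 CPM (2.35 to 7.01 in the other mice), Pf4 22.0 (0.509 to 6.84) and Ppbp 17.7 (0.0474 to 5.51). In treated sgScramble replicate 4, Ccl7 had 36.1 CPM (0.644 to 15.3 in the other mice), Ccl8 459 (1.71 to 104.7), Cxcl16 32.2 (1.22 to 12.3) and Ccrl2 24.1 (4.51 to 11.6). In treated sgScramble replicate 7, Cxcr2 had 219 CPM (29.4 to 65.2 in the other mice).

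Under vehicle, Cxcl1 had 0.0606 CPM in sgOgfod1 replicate 5 and 0 in the other 4 mice. Ccl2 had 1.64 CPM in sgScramble replicate 3 (0.735 to 0.981 in the other mice), and Cxcr2 had 16 CPM in sgScramble replicate 1 (7.29 to 8.57).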

How the results depend on the processing

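Of 41 calls on single members, 32 held in every fit that left out 1 library and 23 in every setting run, and none changed direction. Counts of called members that moved by over 1.5 times were these. In RNA, using only the 12 mice with footprints gave 6 for treatment in sgOgfod1 leukemias (14 with all mice) and 2 for genotype under treatment (0 with all mice), Ccl3 at -2.02 and Cxcl3 at -2.06 on the log2 scale. In footprints, treatment in sgOgfod1 leukemias gave 5 with DESeq2 and 5 without the filter (3 in edgeR with it). Genotype under vehicle gave 1 with DESeq2 and 1 without the filter, Cxcr4, against 0. Genotype under treatment gave 4 with DESeq2 and 3 without the filter, against 1. For footprints relative to RNA, treatment in sgScramble leukemias gave 0 with DESeq2 and 2 without the filter, against 1, and treatment in sgOgfod1 leukemias gave 1 without the filter, against 0. Smaller moves were 18 RNA calls in sgScramble leukemias with DESeq2 (Ccl3 and Ccl5 gained), 15 in sgOgfod1 leukemias with DESeq2 (Cx3cr1 gained, -2.38, adjusted p = 0.0418), and 8 footprint calls in sgScramble leukemias without the filter (Ccl3, Ccl8 and Cxcl3 gained, Ccr2 lost), against 6. The cause was not tested in any of these.

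Leaving out 1 library gave 14 to 16 RNA calls for treatment in sgScramble and 12 to 14 in sgOgfod1 leukemias. In footprints it gave 4 to 5 and 2 to 5 for treatment, 0 to 4 for genotype under treatment (4 without treated sgOgfod1 replicate 5) and 0 to 1 for the interaction. For footprints relative to RNA it gave 0 to 2 in sgScramble leukemias. With library numbers of 17 and above as a term there were 12 RNA calls in sgScramble and 13 in sgOgfod1 leukemias.

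Replicate numbers name different mice in each group and were not used as pairs in the tests above. Same-numbered RNA libraries correlated at -0.049 to 0.615 for treatment in sgScramble leukemias, over 0.1 in 2 of 5 pairs. The 0.615 came from number 3, and its source was not tested. In sgOgfod1 leukemias they correlated at -0.01 to 0.079. For genotype the range was -0.308 to 0.175 under treatment, over 0.1 in 2 of 6 pairs. Under vehicle it was -0.185 to 0.109, over 0.1 in 1 of 5. With the replicate number as a block there were 13 RNA calls in sgScramble (without Ccl2, Cxcl9 and Cxcl16) and 11 in sgOgfod1 leukemias (without Ccl7, Ccl8 and Cxcl12), and 7 and 4 in footprints. The block gave 1 footprint call for genotype under treatment (Ccl6 in place of Ccr1) and 1 for the interaction (Ccl6, -2.06 on the log2 scale), against 0. Without the mouse block, footprints relative to RNA gave 1 call. Footprint depth left 17 of the 30 members untested.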
